A study of Mus musculus with 6 samples.

Results

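Lx, L1_Mus and L1_Mur elements, rodent-lineage subfamilies of the retrotransposon family L1, were examined in RNA captured with tagged mouse Gtsf1. All annotated copies whose name begins with Lx, L1_Mus or L1_Mur within the L1 family of LINEs (long interspersed nuclear elements) were taken, and the copies of each subfamily were summed. The rule itself reads only the names. Reads were found on 106048 such copies, of 1753368 annotated features with any read. The copies belonged to 28 subfamilies, of which 21 were Lx, 4 L1_Mus and 3 L1_Mur. Single copies were described where their mean over the 4 crosslinked libraries reached 1 RPM, the reads of a feature scaled by the size of its library, which held for 263 copies, or 0.248% of those with reads.

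The libraries came from eCLIP, in which ultraviolet light links RNA to protein in intact cells before the protein is purified and the attached RNA is sequenced. Per the labels, all 6 libraries were made from P19 cells, a mouse embryonal carcinoma line. The cells had been transiently transfected with the vector pEF, in which the EF-1alpha promoter drives mouse Gtsf1 with a C-terminal TEV-Strep tag. Irradiation was at 254 nm, and lysates were treated with RNase I before capture on MagStrep XT beads. Crosslinked pull-down (n = 2) was compared with crosslinked input (n = 2), the lysate before capture. Non-crosslinked pull-down and non-crosslinked input had 1 library each, so their ratio has no replicate check. None of the 6 libraries is labelled as made without the tagged protein.

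L1 elements are retrotransposons that copy themselves through an RNA intermediate, with an RNA-binding protein and a protein with endonuclease and reverse transcriptase activity that they encode themselves. Most copies in a genome are truncated at their 5′ end and can no longer move, and many lie inside introns of other genes, where they are transcribed as part of the host transcript. Lx elements are old murine L1 families, L1_Mus and L1_Mur are further L1 families of mouse and its murine relatives, and L1Md elements include the families that are still active in mouse. Gtsf1 binds RNA through zinc fingers and acts in the piRNA pathway, which silences retrotransposons in germ cells. The counts do not separate transcripts that start in an element from longer transcripts that pass through it. Whether counting used strand is not given in the sources used here.

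The smallest library held 13168593 reads and the largest 18418166, so that a single read equalled 0.0543 to 0.0759 RPM. The labels do not say whether the replicates came from separate cultures, so p-values measure only the spread between these libraries. Embryonal carcinoma markers were all detected in the 3 inputs, where their summed level was 69.6 to 89.0 RPM. Summed muscle markers were at 0.0353 to 0.210 RPM there, fibroblast markers at 2.33 to 3.26 RPM and neuron markers at 9.68 to 12.9 RPM. In the 3 pull-downs the muscle markers were at 0.645 to 1.26 RPM and the embryonal carcinoma markers at 45.6 to 62.2 RPM, above and below all inputs respectively. Most of the muscle sum was Tnnt2, at 1.09 and 0.924 RPM in the crosslinked pull-downs. Neuron markers were at 4.70 to 9.46 RPM in the 3 pull-downs, below all inputs, and fibroblast markers at 1.24 to 2.40 RPM, overlapping the inputs. The part of these markers in the results was not tested.

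Copies of Lx, L1_Mus and L1_Mur together were at a higher level in every pull-down than in any input. Their summed level was 1548 and 1584 RPM in the crosslinked inputs, against 4073 and 4071 RPM after capture. Without crosslinking it was 782 RPM in the input and 2695 RPM in the pull-down. The pull-down mean of 4072 ± 1.26 RPM (SD, n = 2) was 2.60 times the input mean of 1566 ± 25.2 RPM (SD, n = 2), and the ratio without crosslinking was 3.45. The groups did not overlap, and the two-sided exact permutation p was 0.333, the smallest that 2 libraries against 2 can give. As a share of all reads these elements made up 0.155% (95% Wilson interval 0.153 to 0.157) and 0.158% (0.157 to 0.160) of the crosslinked inputs. They made up 0.407% of each crosslinked pull-down (0.404 to 0.410 in both). These intervals hold counting error alone, and whether PCR copies of a molecule were removed is not given in the sources used here.

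The Lx group supplied most of the difference. Lx copies summed to 962 and 986 RPM in the crosslinked inputs and to 2987 and 2985 RPM in the crosslinked pull-downs, a ratio of 3.07. L1_Mur copies were at 145 and 146 RPM in the inputs and at 408 and 402 RPM in the pull-downs, a ratio of 2.78. L1_Mus copies were at 442 and 451 RPM in the inputs and at 678 and 684 RPM in the pull-downs, a ratio of 1.52. Each group had both pull-downs above both inputs. The quotient of Lx to L1_Mus was higher in the pull-downs than in the inputs by 1.01 on the log2 scale, and that of L1_Mur to L1_Mus by 0.87. The quotient of Lx to L1_Mur differed by 0.14. With only the copies that had whole counts in every library, the difference for Lx to L1_Mus was 0.42. The log2 pull-down ratio of those copies was 1.00 for Lx, 0.72 for L1_Mur and 0.57 for L1_Mus, against 1.62, 1.48 and 0.61 with all copies. None of these quotients overlapped between pull-downs and inputs, and each had a two-sided exact permutation p of 0.333, again the smallest possible.

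Measured against the other LINEs of the same libraries, these elements gained share. They held 38.9% and 38.3% of LINE reads in the crosslinked inputs and 53.1% and 52.6% in the crosslinked pull-downs. Without crosslinking they held 38.2% in the input and 46.9% in the pull-down. They supplied 68.8% of the difference in summed LINE level between crosslinked pull-down and input, and 51.6% of that without crosslinking. L1Md elements were at 1165 and 1330 RPM in the crosslinked inputs and at 964 and 1168 RPM in the crosslinked pull-downs, so those groups overlapped. The quotient of the Lx, L1_Mus and L1_Mur sum to the L1Md sum was 1.33 and 1.19 in the inputs and 4.22 and 3.49 in the pull-downs, a log2 difference of 1.61. When only copies with whole counts in every library were summed, this difference was 0.31. It was 1.18 without the most abundant copy of each group and 0.95 without copies of at least 1 RPM. Without crosslinking the quotient went from 1.12 to 1.73, a log2 difference of 0.62. The quotient to the remaining LINEs, mostly older L1 and L2 families, went from 1.22 and 1.29 to 1.55 and 1.63, a log2 difference of 0.34 (0.59 with whole-count copies). Both quotients had no overlap and an exact permutation p of 0.333.

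**Figure D1:**
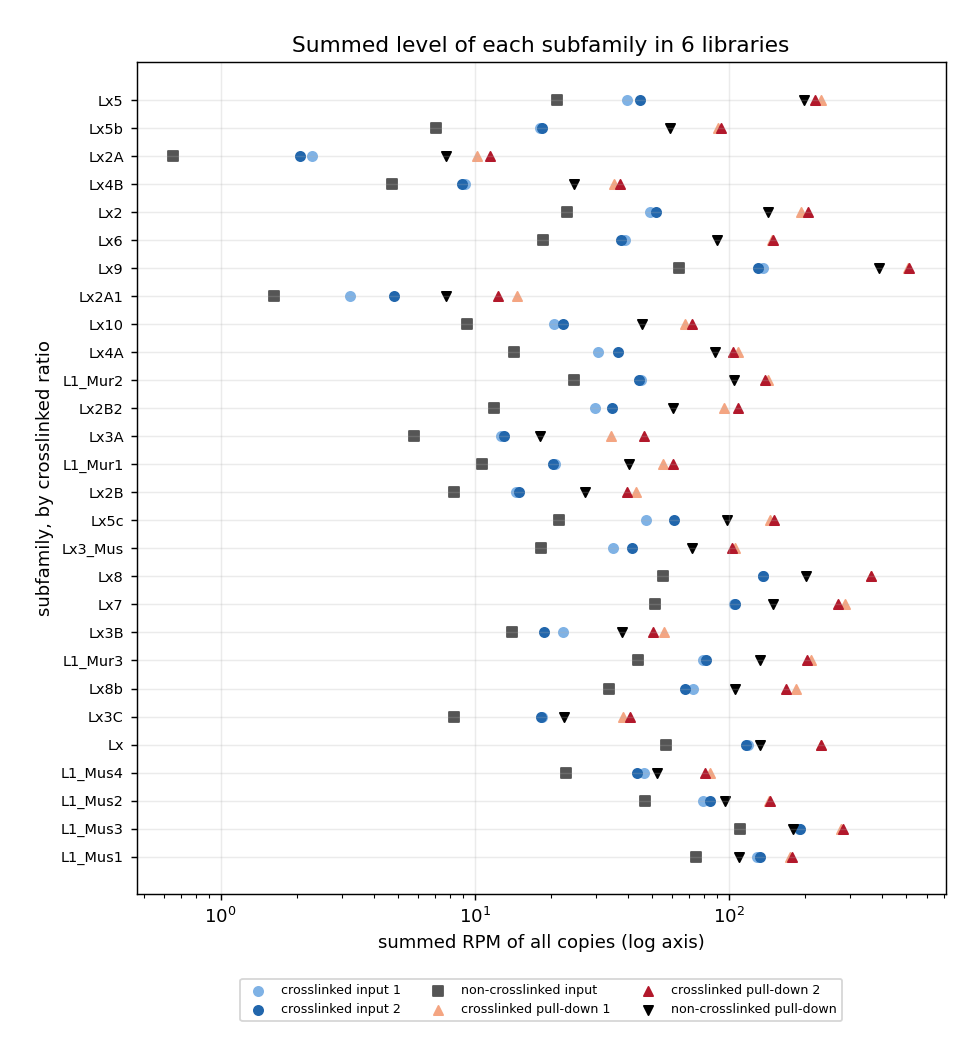
Summed level in RPM (log axis) of each of the 28 subfamilies in each of the 6 libraries, 1 point a library. For every subfamily the pull-down points lie above the input treated the same way, with Lx9 and Lx8 the highest of all in the crosslinked pull-downs.

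The 28 subfamilies were compared in an edgeR quasi-likelihood fit over all 677 transposable element subfamilies that reached 1 RPM, with Benjamini-Hochberg adjustment over all of them. All 28 were higher in the crosslinked pull-downs at an adjusted p under 0.05 and none was lower, where 64.5% of all 677 subfamilies were higher and 2.22% lower. The log2 ratios ran from 0.52 to 2.49 with adjusted p from 2.26e-05 to 0.0018. The median was 1.58, against 0.71 over all 677, 1.06 over 87 subfamilies of the remaining LINEs (77 higher) and 0.32 over 6 L1Md subfamilies (3 higher). In all 28 both pull-downs lay above both inputs, as in 74.4% of all subfamilies. Subfamily sums without the copies of at least 1 RPM, an alternative chosen after seeing the data, were also higher for all 28. In that fit 416 of all 662 subfamilies tested were higher.

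At the head of the order stood 3 Lx subfamilies. Lx5 was at 39.9 and 44.8 RPM in the crosslinked inputs, at 230.3 and 219 RPM in the pull-downs of irradiated cells, and at 21.1 and 197 RPM in the non-crosslinked input and pull-down. Its crosslinked ratio of 5.30 was the highest of the 28, though the ratios of its replicate pairs, 5.77 and 4.88, span those of the next subfamilies. Lx5b, at 18.1 and 18.4 RPM in the inputs and 91.0 and 93.2 RPM in the pull-downs, had a ratio of 5.05. Lx2A was a small group, at 2.30 and 2.05 RPM in the inputs and 10.2 and 11.5 RPM in the pull-downs, and its ratio of 4.99 came from pair ratios of 4.44 and 5.60. These neighbours do not differ beyond their spread. The order also depended on single copies, since 49.8% of the Lx5 reads in the pull-downs lay in 19 copies of at least 1 RPM. Without such copies the ratio was 3.03 for Lx5 and 3.28 for Lx5b, below 4.99 for Lx2A and 3.72 for Lx4B.

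By level, Lx9 led the crosslinked pull-downs. It was at 136 and 131 RPM in the crosslinked inputs and at 508 and 512 RPM in the crosslinked pull-downs, 3.82 times higher, and at 63.6 and 392 RPM in the non-crosslinked pair. Lx8 had a similar input level, 137 RPM in both libraries, and reached 361 and 363 RPM, 2.65 times higher. The Lx9 and Lx8 pair ratios did not overlap, but without copies of at least 1 RPM (25 for Lx9 and 22 for Lx8) the ratios were 2.18 and 2.14. Lx4B (4.00), Lx2 (3.97) and Lx6 (3.87) had ratios close to that of Lx9. Lx2A1, Lx10, Lx4A, Lx2B2 and Lx3A followed between 3.35 and 3.13, and Lx2B, Lx5c, Lx3_Mus, Lx7, Lx3B and Lx8b between 2.81 and 2.53. Replicate pairs of several of these overlapped, for example 4.52 and 2.57 for Lx2A1. At the foot of the Lx order were Lx3C (2.16) and the subfamily named Lx alone (1.96), which was at 119 and 116 RPM in the inputs and 230.2 and 232 RPM in the pull-downs.

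L1_Mur subfamilies lay in the middle of the order. L1_Mur2 was at 45.0 and 44.4 RPM in the inputs and 143 and 139 RPM in the pull-downs, a ratio of 3.15. L1_Mur1 had a ratio of 2.82 and L1_Mur3 one of 2.57, and all 3 lay within the range of the Lx subfamilies. The 4 L1_Mus subfamilies had the lowest ratios of the 28. L1_Mus3, the most abundant subfamily of all in the inputs, was at 188 and 191 RPM there and at 277 and 280.3 RPM in the pull-downs, a ratio of 1.47. L1_Mus1 went from 129 and 133 RPM to 173 and 178 RPM, a ratio of 1.34, and L1_Mus2 and L1_Mus4 had ratios of 1.77 and 1.84. The pair ratios of all 4 lay below those of every L1_Mur subfamily and of every Lx subfamily.

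The L1_Mus calls differed between tools. TMM factors, which change the scaling alone, moved the median log2 ratio of all 677 subfamilies from 0.71 to 0.91, with L1_Mus1 at 0.72, L1_Mus3 at 0.85 and all 28 called higher (74.3% of the 677). DESeq2 changes both the size factors and the test. It moved the median to -0.01 and called 23 of the 28 higher, against 22.0% of the 677. In DESeq2 L1_Mus1 was at -0.21 and L1_Mus3 at -0.08, against 0.19 for L1_Mus2, 0.24 for L1_Mus4 and 0.34 for Lx, and none of these 5 passed the threshold. The 4 L1_Mus subfamilies had the lowest ratios of the 28 in edgeR and in DESeq2. The number of copies with reads moved with the ratio, with r = -0.62 between log2 copy number and log2 ratio over the 28 subfamilies, which share libraries. Its part in the result was not tested.

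**Figure D2:**
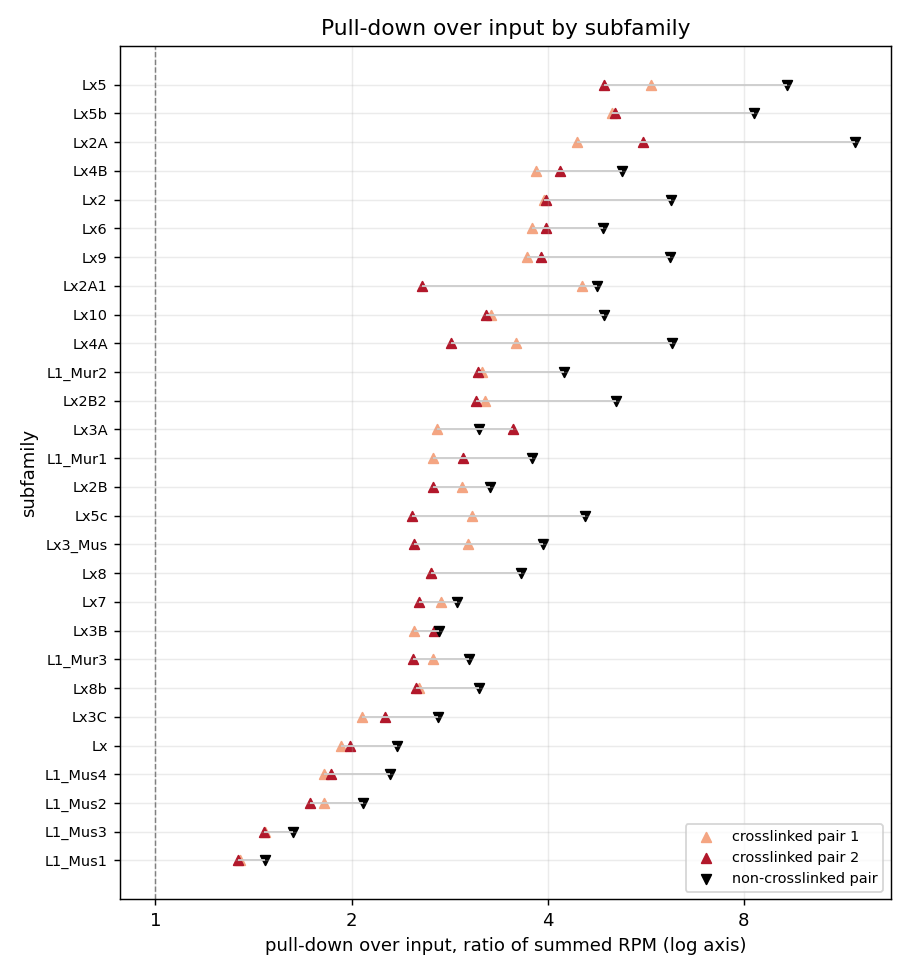
Pull-down over input ratio of summed RPM (log axis) of each of the 28 subfamilies, with 1 point for each of the 2 crosslinked replicate pairs and 1 for the non-crosslinked pair. The non-crosslinked point lies above both crosslinked points in 27 subfamilies, and the 4 L1_Mus subfamilies have the lowest ratios.

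The pull-down of cells that had not been irradiated gave a similar order of subfamilies. Without crosslinking, pull-down exceeded input for all 28, and for 73.1% of all 677 subfamilies. The ratio without crosslinking was above both crosslinked pair ratios in 27 of the 28, the exception being Lx3A (2.70 and 3.54 with crosslinking). The log2 ratios with and without crosslinking had r = 0.95 and rho = 0.95 over the 28 subfamilies and r = 0.92 within Lx, and the 2 sets of libraries share no sample. Inputs differed too. The 2 crosslinked inputs lay above the non-crosslinked input for all 28 subfamilies, as for 97.3% of all 677, by between 1.47 and 3.34 times. RPM gives shares of a library, not amounts of RNA.

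The difference between the crosslinked and the non-crosslinked ratio was tested as an interaction in an edgeR fit over all 6 libraries, in which the single non-crosslinked libraries were assumed to vary like the crosslinked ones. None of the 28 subfamilies was called, where 0.443% of the 677 were lower with crosslinking and 0.0% higher. All 28 estimates were below 0, from -1.29 to -0.01 on the log2 scale, as were 57.5% of the 677. An unadjusted p under 0.05 was reached by 13, all lower, where 18.9% of the 677 were lower and 4.28% higher at that level. The smallest adjusted p of the 28 was 0.0755. In sums without the copies of at least 1 RPM, 2 of the 28 reached an unadjusted p under 0.05, lower, where 92 of 662 subfamilies reached it in either direction. The median estimate of the 28 was then -0.16, against -0.41 with all copies. With TMM factors, which move the median of all 677 from -0.13 to -0.71, 26 of the 28 were called lower, against 30.6% of the 677. Without crosslinked input 1 or 2, 8 and 3 were called lower, against 10.2% and 9.31% of the 677. Without crosslinked pull-down 1 or 2, 2 were each time, against 6.5% and 6.06%.

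**Figure D3:**
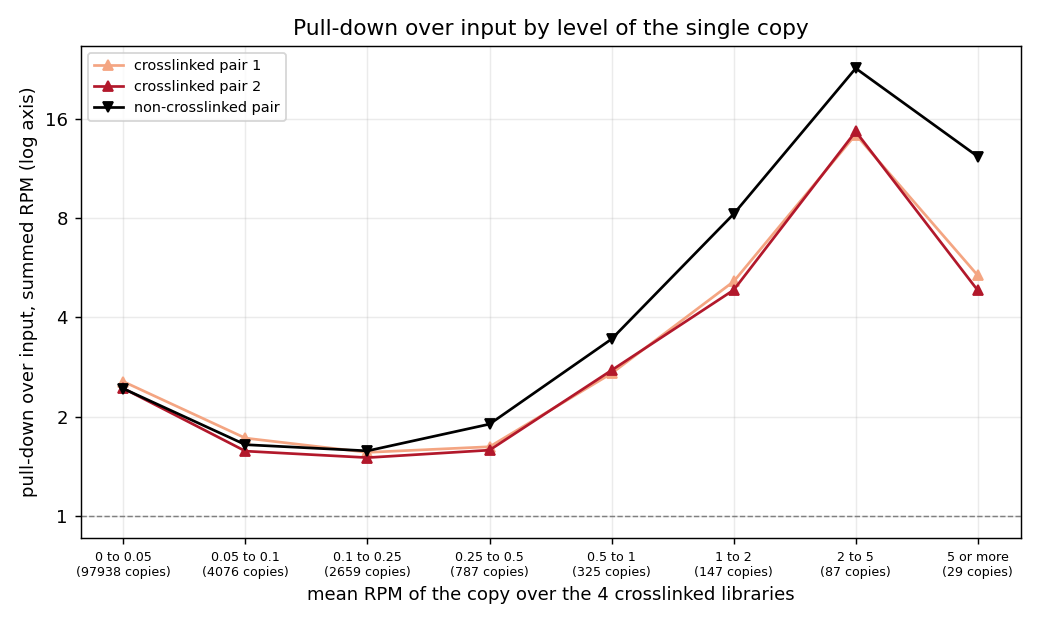
Pull-down over input ratio of summed RPM (log axis) of copies grouped by their mean RPM over the 4 crosslinked libraries, with lines for the 2 crosslinked replicate pairs and the non-crosslinked pair. The crosslinked ratio is lowest from 0.1 to 0.25 RPM (1.53) and highest from 2 to 5 RPM (14.5).

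Reads of these elements were spread thinly over many copies. The copies of at least 1 RPM were chosen by a mean that includes the pull-downs, which raises their share there. The 263 copies of at least 1 RPM were at 186 and 207 RPM together in the crosslinked inputs and at 1268 and 1339 RPM in the crosslinked pull-downs. Of the reads of these elements they held 12.0% and 13.1% in the inputs, 31.1% and 32.9% in the crosslinked pull-downs, and 45.4% after capture without crosslinking. The remaining 105785 copies went from 1363 and 1377 RPM to 2805 and 2732 RPM, a ratio of 2.02, and had 2.14 without crosslinking. By level, the ratio was 2.50 in the 97938 copies under 0.05 RPM and between 1.53 and 1.65 in the 3 groups from 0.05 to 0.5 RPM. It was 2.74 from 0.5 to 1 RPM, 4.99 from 1 to 2 RPM, 14.5 from 2 to 5 RPM and 5.08 at 5 RPM or more. Copies of the remaining LINEs, L1Md left out, had ratios of 12.9, 13.2 and 22.5 in the last 3 of these groups. In the groups under 1 RPM theirs were 1.77, 1.14, 1.15, 1.52 and 2.66, each below that of these elements. The level of a copy includes its pull-down value, so this order describes the copies and is not a test.

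How reads were divided among copies limits what a single copy shows. Many deposited counts are fractions, as when a read that matches several features is shared among them, though how this was done is not given in the sources used here. Copies with whole counts in a library held 70.1% and 68.0% of these elements' reads in the crosslinked inputs against 51.6% and 48.9% in the crosslinked pull-downs. Only 26 of the 263 copies had whole counts in all 6 libraries. In 3 pairs of copies the values were within 1% of each other in all 6 libraries, namely L1_Mur2_dup10507 with L1_Mur2_dup10510, L1_Mus3_dup21158 with Lx2_dup12229, and Lx4A_dup5436 with Lx5_dup9802. Such pairs cannot be told apart. Copies are named as in the files, and no coordinates or sequences of single copies were used here.

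In the fit over all 39872 features of at least 1 RPM, 202 of the 263 copies were higher in the crosslinked pull-downs, 3 were lower and 58 were not called. Of all features tested, 6.41% were higher and 3.47% lower. The filter bears on this count. Of the 263 copies, 195 (74.1%) reached a mean of 1 RPM in the pull-downs only, against 5.90% of all features tested, and such copies had to be higher. Of the 68 copies that reached 1 RPM in the inputs, 12 were higher, 3 lower and 53 not called, where 2.17% of all features that reached it there were higher and 3.69% lower. By group, the calls were 161 higher and 2 lower of 192 Lx copies, 22 higher and 0 lower of 30 L1_Mur copies, and 19 higher and 1 lower of 41 L1_Mus copies. The filter bears unevenly on these groups. Copies with 3 reads or fewer in each crosslinked input, all of which were called higher, numbered 134 in Lx, 21 in L1_Mur and 16 in L1_Mus. Just inside the filter stood Lx10_dup1492 at 1.00 RPM, and just outside it L1_Mus3_dup12166 at 0.998 RPM.

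Copies were therefore also chosen on the non-crosslinked libraries, which the crosslinked test does not use, an alternative added after seeing the data. Of 29 copies with at least 1 RPM in the non-crosslinked input, 5 were higher and 1 lower in the crosslinked comparison, against 1.63% and 4.15% of all features chosen the same way. Of 342 copies with at least 1 RPM in the non-crosslinked pull-down, 311 were higher and 2 lower, against 18.8% and 7.38%. A choice on the pull-down again favours copies that are high there. These 342 summed to 142 RPM in the crosslinked inputs and 1378 RPM in the crosslinked pull-downs, 9.67 times higher. The 29 summed to 122 and 233 RPM, a ratio of 1.92, but their median log2 ratio was -0.28, against -0.27 over all features chosen the same way. Of the 29, 13 (44.8%) had both pull-downs below both inputs and 6 (20.7%) had both above. Both lay above in 4.61% of all features chosen the same way. Over all 39872 features of at least 1 RPM in the crosslinked libraries, 57.7% lay below and 10.8% above.

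**Figure D4:**
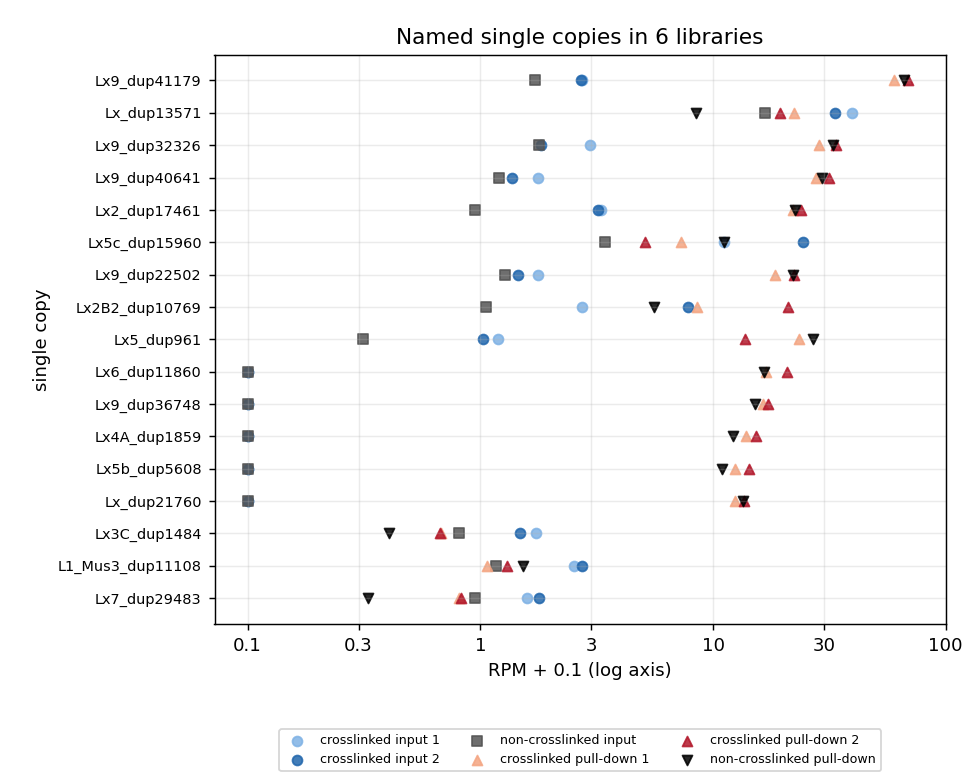
RPM plus 0.1 (log axis) of the named single copies in each of the 6 libraries, 1 point a library, so that a library without reads stands at 0.1. In 5 copies all 3 inputs stand at 0.1, and in Lx_dup13571, Lx5c_dup15960 and the 3 copies called lower the crosslinked inputs lie above the crosslinked pull-downs.

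Among the 10 copies with the highest mean, 4 were Lx9 copies and all 4 were higher in the pull-downs. Lx9_dup41179 was at 2.63 and 2.60 RPM in the crosslinked inputs, at 60.0 and 68.8 RPM in the pull-downs of irradiated cells, and at 1.63 and 65.7 RPM in the non-crosslinked input and pull-down. Its log2 ratio was 4.71 ± 0.21 (SE), with an adjusted p of 0.000355 in the edgeR test. The pull-downs with and without crosslinking were at the same level, and all inputs far below them. Lx9_dup32326, Lx9_dup40641 and Lx9_dup22502 had the same pattern, with inputs from 1.11 to 2.87 RPM and pull-downs from 18.3 to 33.7 RPM in all 6 libraries. Their log2 ratios were 3.85, 4.43 and 3.84. None of the 4 Lx9 copies had whole counts in every library. Lx9_dup40641 and Lx9_dup22502 had the same fractional count in crosslinked input 1, 29.03 reads. The 4 copies may therefore share reads, which was not tested.

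Other Lx copies among the 10 were less alike. Lx2_dup17461, with whole counts in every library, was at 3.21 and 3.09 RPM in the crosslinked inputs, 22.0 and 23.8 RPM in the pull-downs of irradiated cells, and 0.848 and 22.3 RPM without crosslinking. Lx5_dup961, also with whole counts, was at 1.09 and 0.923 RPM, then 23.4 and 13.6 RPM, and at 0.212 and 26.8 RPM without crosslinking. Both were called higher, with log2 ratios of 2.95 ± 0.17 and 4.28 ± 0.33 (SE). Lx2B2_dup10769 was at 2.63 and 7.71 RPM in the inputs and 8.44 and 20.9 RPM in the pull-downs. It was not called (adjusted p = 0.174 in the edgeR test), with a wide spread between replicates on both sides but similar ratios in the replicate pairs, 3.20 and 2.71. DESeq2 called it (adjusted p = 0.0328), and so did edgeR with a block for replicate number.

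Among the 10, 2 copies lay lower in the crosslinked pull-downs than in the inputs without passing the threshold. Lx_dup13571 was the most abundant copy in the inputs, at 39.6 and 33.3 RPM, and was at 22.2 and 19.3 RPM in the pull-downs. The non-crosslinked pair was at 16.6 and 8.35 RPM, and the adjusted p was 0.0557 in the edgeR test. It passed with unannotated reads in the library sizes (edgeR, adjusted p = 0.0385) and with limma (0.0394). Lx5c_dup15960 was at 11.1 and 24.2 RPM in the crosslinked inputs and 7.22 and 5.01 RPM in the pull-downs, with an adjusted p of 0.0816 in the edgeR test. It passed with unannotated reads in the library sizes (edgeR, adjusted p = 0.0463). Its log2 ratio was -1.91 without crosslinked input 1, where it also passed (adjusted p = 0.000381), and -0.75 without crosslinked input 2. In the non-crosslinked pair it was higher in the pull-down, at 11.1 RPM against 3.32 RPM.

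**Figure D5:**
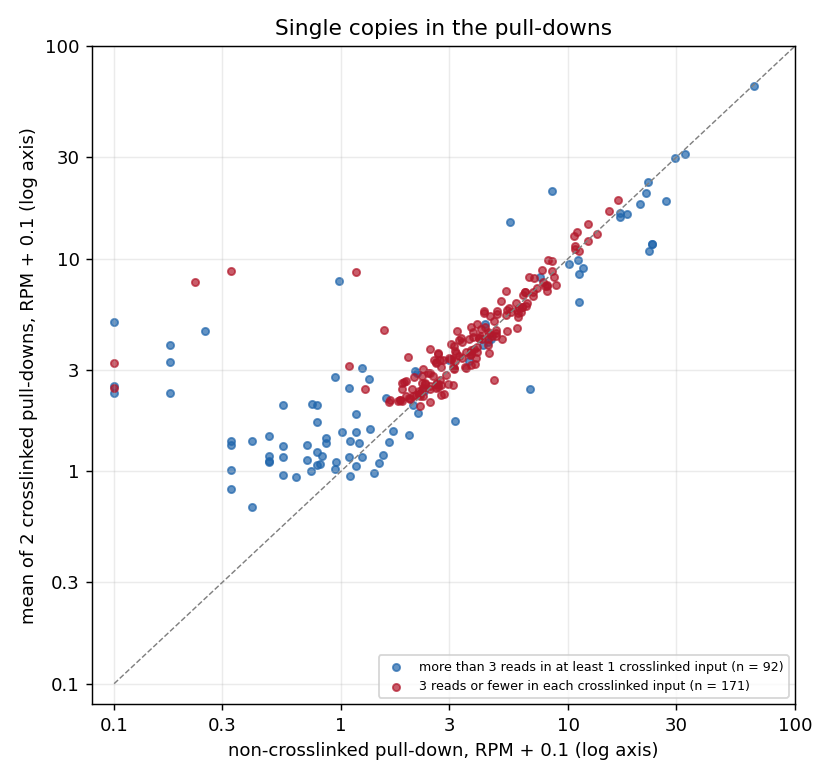
Mean of the 2 crosslinked pull-downs against the non-crosslinked pull-down for the 263 copies, both as RPM plus 0.1 on log axes, 1 point a copy, coloured by whether each crosslinked input had 3 reads or fewer. Of the 171 copies with so few input reads, 164 lie within 2-fold of the dashed line of equal levels.

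A large set of copies was nearly absent from every input. Of the 263 copies, 171 had 3 reads or fewer in each crosslinked input and 124 had none, where 2.07% of all features tested had 3 or fewer. Among the tested copies of all other LINEs, L1Md included, the same held for 98 of 148 (66.2%), close to the 65.0% of these elements. All 171 also had 3 reads or fewer in the non-crosslinked input, and 159 had none there. In the non-crosslinked pull-down 167 of them had more than 3 reads, and in 164 its level was within 2-fold of the crosslinked pull-down mean. Their median level was 3.54 and 3.73 RPM in the pull-downs of irradiated cells, and 3.46 RPM without crosslinking. For copies with few input reads the depth allows only a bound, with 3 reads in an input taken as the floor, worth at most 0.172 RPM in the crosslinked ones.

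The 5 called copies with the largest fitted log2 ratios, from rounded counts, all had 0 reads in the 3 inputs, so only lower bounds can be given and they have no order. Lx6_dup11860 reached 16.8 and 20.7 RPM with crosslinking and 16.4 RPM without, at least 109-fold higher with crosslinking and at least 77.6-fold higher without. Lx9_dup36748 was at 16.3 and 17.0 RPM in the crosslinked pull-downs, at least 97.2-fold higher, and at 15.0 RPM without crosslinking. Lx4A_dup1859 was at 13.7 and 15.2 RPM, at least 84.2-fold higher, and at 12.1 RPM without. Lx5b_dup5608 (12.3 and 14.1 RPM, at least 77.1-fold) and Lx_dup21760 (12.3 and 13.5 RPM, at least 75.3-fold) were at 10.8 and 13.3 RPM without crosslinking. Over the 5, the crosslinked pull-down mean was between 0.971 and 1.22 times the non-crosslinked pull-down.

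Few of the copies called higher stood well above their non-crosslinked level. Of the 202 copies called higher, 186 had a non-crosslinked pull-down within 2-fold of the crosslinked mean, and 10 had both crosslinked pull-downs at more than 3 times the non-crosslinked one. These 10, chosen after their values were seen, were all Lx copies. Lx_dup4642 had no reads in the 3 inputs and was at 5.99 and 11.3 RPM in the crosslinked pull-downs against 0.228 RPM in the non-crosslinked one. Lx7_dup8867 was at 6.19 and 10.8 RPM against 1.06 RPM, and Lx_dup1009 at 3.72 and 11.6 RPM against 0.127 RPM. Lx5b_dup1404 had no reads in either non-crosslinked library, and was at 0.964 and 0.570 RPM in the crosslinked inputs and at 5.20 and 4.70 RPM in the crosslinked pull-downs. The other copies were Lx_dup8868, Lx5_dup13545, Lx2_dup3719, Lx3B_dup1708, Lx8_dup22655 and Lx5c_dup6066. The interaction test over single features called none of the 263 copies (0.0% of all 39872 in either direction), with 0 above and 18 below 0 at an unadjusted p under 0.05, where 11.6% of all features were above and 2.03% below. All of the 10 had no reads in the non-crosslinked input, as had 159 of the 171 copies with few input reads. Such copies have no measured ratio without crosslinking, so the absence of a call decides nothing for them. The interaction estimate of Lx_dup4642, for example, was 5.19 on the log2 scale with an SE of 18558.

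The 3 copies called lower had moderate levels. DESeq2 called none of them, and with TMM factors 2 were called, without Lx7_dup29483. Lx3C_dup1484 was at 1.63 and 1.39 RPM in the crosslinked inputs and 0.579 and 0.572 RPM in the pull-downs, a log2 ratio of -1.32 ± 0.22 (SE) with an adjusted p of 0.0134 in the edgeR test. L1_Mus3_dup11108 was at 2.43 and 2.65 RPM and then 0.969 and 1.20 RPM, with the non-crosslinked pull-down above its input, at 1.43 against 1.07 RPM. Lx7_dup29483 was at 1.49 and 1.68 RPM and then 0.714 and 0.727 RPM. Its call was lost without any 1 of the 4 libraries, with adjusted p from 0.0583 to 0.164 in the edgeR test, and that of Lx3C_dup1484 without crosslinked pull-down 1 (0.0558).

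The authors' deposited table of enrichment ratios lists 514 of these copies among 216085 features, and 382 of the 514 have a ratio above 1 (74.3%, against 74.6% of all features in the authors' deposited table). The median ratio in the authors' deposited table is 1.69 for these copies, 1.17 for those of at least 1 RPM and 1.37 for all features listed. Of the 263 copies of at least 1 RPM, 64 are in the authors' deposited table, and 179 of the 263 had no read in at least 1 library. Of the 514 listed copies, 17 are among the 1000 highest of the 216085 ratios in the authors' deposited table. L1_Mus1_dup15743 and L1_Mus4_dup5757 hold its ranks 1 and 2. Both were called higher, with less than 1 read in each crosslinked input and 6.71 and 6.46 RPM, and 6.80 and 7.94 RPM, in the pull-downs of irradiated cells. Lx8_dup1704 has a ratio of 288 in the authors' deposited table. That copy had 1 read in each input, at 0.0573, 0.0543 and 0.0707 RPM, and was at 11.3, 11.4 and 10.7 RPM in the 3 pull-downs. High ratios in the authors' deposited table also belong to copies with few reads, such as Lx8_dup16414 with 258, which was at 0.338 and 0.428 RPM in the crosslinked pull-downs.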

How the data were processed

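Per the submitters' processing notes, bcl2fastq 2.19, STAR 2.5.2b, bedtools 2.29.0 and the build mm10 were used; repeat annotation, PCR duplicates and strand handling are not given in the sources used here. The authors deposited an expected count per feature for each library, which can be a fraction, and RPM values scaled by the authors to all reads of the library. A table deposited by the authors gives 1 enrichment ratio per feature, with its formula not given in the sources used here. Reads without annotation (6.99% to 14.4% of a library) stayed in the RPM totals and out of library sizes and tests.

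Expected counts were rounded to whole numbers and tested in R 4.3.3 with edgeR 4.0.16 (glmQLFit and glmQLFTest), with annotated reads as library sizes and no scaling factors. Features entered with 1 RPM or more as the mean of the crosslinked libraries. Features with an adjusted p under 0.05 were called. Single sums were compared with two-sided exact permutation tests. The edgeR, limma and DESeq2 fits, not the permutation tests, were run on simulated whole counts with known changes. These held no fractional counts and no features set to be absent from the inputs, so they do not bear on such copies. Subfamilies were all named, with the 10 copies of highest mean and up to 5 copies called in each direction with the largest ratio. Alternatives were TMM factors, unannotated reads in library sizes, DESeq2 1.42.0, limma 3.58.1, no filter, a 2 RPM filter, all 6 libraries in 1 fit, a replicate block and leaving out each library. The elements, lists and tests were chosen with earlier results of these data known.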

Additional observations from a re-analysis of the deposited data

Results flagged for a closer look

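Lx5c_dup15960 differed in direction between the crosslinked and the non-crosslinked pair. Both crosslinked pull-downs, at 7.22 and 5.01 RPM, lay below both crosslinked inputs, at 11.1 and 24.2 RPM, while the non-crosslinked pull-down was 3.34 times its input. L1_Mus3_dup11108, lower in both crosslinked pull-downs, had a non-crosslinked pull-down at 1.35 times its input. Neither copy was called in the interaction test over all single features. The summed L1Md level, used here for comparison, was 2.24 times higher in the non-crosslinked pull-down, while each crosslinked replicate pair was lower (0.828 and 0.878); that difference was not tested.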

How the results depend on the processing

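All 28 subfamilies were called higher in every alternative run except DESeq2, which called 23, with L1_Mus1 at -0.21 and L1_Mus3 at -0.078 on the log2 scale. The log2 ratio of the summed elements ran from 0.93, with whole-count copies only, to 1.47. The count of 202 copies called higher became 100 with a filter of 2 RPM, where 116 were tested and 1420 of all 18899 features were higher. It was 0 with no filter, where none of the 942601 features tested was higher. It was 5 and 311 among copies chosen on the non-crosslinked input and pull-down. The count of 3 copies called lower was 6 with unannotated reads in library sizes, 5 with limma and 2 with TMM factors. In these runs 2213, 2318 and 634 of all 39872 features were lower. With DESeq2, which gave Lx3C_dup1484 no adjusted p, it was 0, where 239 features were lower. It was 0 with no filter and 0 at 2 RPM, where 865 of 18899 features were lower. Among copies chosen on the non-crosslinked input it was 1. At an unadjusted p under 0.05 it was 12 with edgeR. The interaction called 26 subfamilies lower with TMM factors and 2 to 8 without 1 library, and 0 to 3 copies without 1 library, 3 of them without crosslinked input 1, where 128 of 39872 features were lower and 35 higher. The cause was not tested. The log2 ratio of summed L1Md turned to 0.18 without its most abundant copy, 0.62 with whole-count copies and 0.060 without copies of at least 1 RPM. With the replicate block, 28 subfamilies, 202 copies higher and 3 lower were called, and the deviations of same-numbered libraries had r = 0.11 over all tested features and -0.20 over the 263 copies; the block changed the call of Lx2B2_dup10769 (adjusted p = 0.00575 in edgeR) and of no other named copy. At this depth, copies with 3 reads or fewer in an input have only a bound.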
